A study of Oryctolagus cuniculus with 36 samples.

Results

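The genes of the insulin-like growth factor (IGF) and growth hormone axis were followed across liver libraries from a rabbit study of hereditary tyrosinemia type I, whose title names repair of the gene by CRISPR/Cas9 soon after birth. The axis was taken as 10 genes chosen by symbol: IGF1, IGF2, IGFALS, IGFBP1, IGFBP2, IGFBP3, GHR, IGF1R, IGF2R and STAT5B. Of these, 7 had a row among the 23394 genes of the table and all 7 were among the 14939 genes tested. IGF2, IGFALS and IGFBP3 were matched neither by symbol nor by RefSeq gene identifier and were not analysed here.

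The titles give 3 groups, WT (the usual short form of wild type), FA and FK, each with 3 numbered sets of 4 libraries. The titles do not spell out FA and FK, and the labels give no allele, agent, dose, sex or age for any group. All 36 libraries, WT included, carry the same description as a rabbit model of the disease, so the grouping rests on the titles alone. The labels state for all of them that livers of treated rabbits were dissociated with trypsin before RNA was taken. The 4 libraries of a set were summed to 1 replicate, so n = 3 in each group. The labels tie neither libraries nor sets to separate animals, and a p-value here therefore reflects the variation among sets, part of which may be technical.

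Growth hormone acts on hepatocytes through its receptor GHR, which activates the kinase JAK2 and the transcription factor STAT5B. STAT5B in turn drives transcription of IGF1, the growth factor that the liver secretes into the blood. IGF binding proteins (IGFBPs) carry IGFs in plasma and control their access to the receptor IGF1R, while IGF2R takes up IGF2 for degradation. The mature hepatocyte is known as a main source of IGF1 with little IGF1R of its own, and its IGFBP1 gene is repressed by insulin and induced in fasting and stress.

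Each library held 11.7 to 22.5 M counts and each replicate 53.2 to 78.6 M. FAH, the enzyme missing in the disease, stood at 217.5 to 270.7 CPM (counts per M counts after TMM scaling, the composition scaling of edgeR) in the WT replicates, at 19.6 to 25.8 in FA and at 11.8 to 16.4 in FK. Summed hepatocyte markers were abundant in all 9 replicates, and most of the sum was ALB, at 85070 to 233500 CPM. Its other genes did not all move alike. APOA1 had 2716 and 2564 CPM in FK replicates 1 and 2 and 28.0 to 115.2 in the rest. TTR had 838 and 1136 CPM in FK replicates 1 and 2 and 3293 to 7188 in the rest. FK replicate 3 stood apart from its group: over all tested genes Pearson's r of its log CPM was 0.854 with FK replicate 1 and 0.821 with FK replicate 2, and between 0.958 and 0.970 with each FA replicate. Summed markers of blood-forming cells separated the same replicates. Erythroid markers (12 of 12 found) summed to 907 and 2343 CPM in FK replicates 1 and 2 and to 40.2 to 263.8 CPM in the other 7. Neutrophil markers (7 of 8 found) summed to 1067 and 1557 CPM against 15.2 to 38.9, and cell division markers (10 of 10) to 295.6 and 628.7 CPM against 38.0 to 92.2. TFRC and AURKA did not follow this split. TFRC, of the erythroid list, was higher in all FA and FK replicates than in WT, and gave 142.7 CPM of the sum in FK replicate 3. AURKA, of the cell division list, had 69.4, 79.9 and 28.7 CPM in WT and a mean of 26.2 over FK replicates 1 and 2. All other found members of these lists were highest in FK replicates 1 and 2. RHAG was at 0 in 4 of the other 7 replicates, ANK1 in 2 and GATA1, AHSP and MPO in 1 each, and none of these was at 0 in FK replicates 1 and 2. The FK values of the axis genes are therefore given by replicate, and their differences from WT also without replicate 3. FK replicate 3 was singled out from these same data, so p-values without it are descriptions and not independent support.

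**Figure D1:**
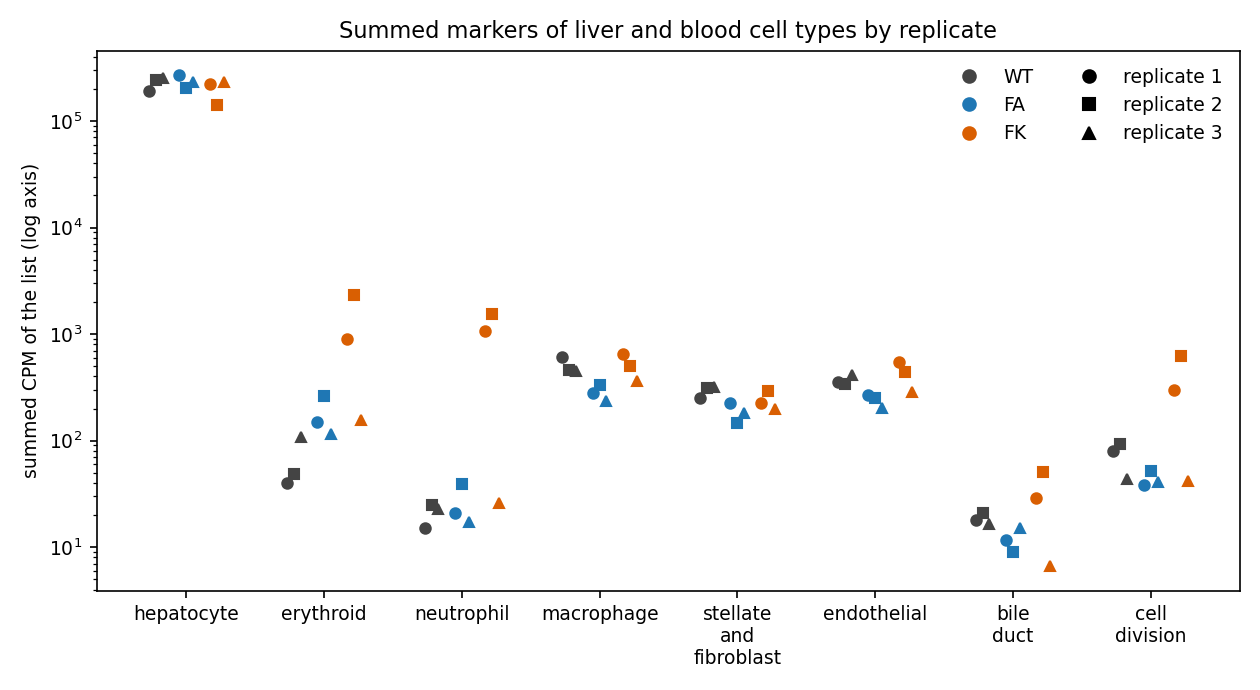
Summed CPM (log axis) of marker lists for liver and blood cell types and for cell division; colours are the groups and symbols the replicates. Erythroid, neutrophil and cell division sums are high in FK replicates 1 and 2 and not in FK replicate 3, while hepatocyte sums lie between 141400 and 268400 CPM in all 9 replicates.

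No member was called, that is, reached a Benjamini-Hochberg adjusted p under 0.05 over all genes in edgeR's quasi-likelihood test, in any of the 3 comparisons. In FK against WT the count was 0 of 7 where 4.77% of all tested genes were called (3.04% higher, 1.73% lower), in FA against WT 0 of 7 where 0.167% were called (0.0937% higher, 0.0736% lower), and in FA against FK 0 of 7 where 0% were called. At an unadjusted p under 0.05 the counts were 4, 0 and 2 of 7, beside 26.9%, 10.2% and 21.9% of all tested genes. DESeq2 called 2, 0 and 2 of 7, beside 17.5%, 2.38% and 11.9% of the genes it tested. Without FK replicate 3, edgeR called 4 of 7 in FK against WT, 2 higher and 2 lower, beside 34.9% of all genes (18.7% higher, 16.2% lower), and 5 of 7 in FA against FK, beside 34.5%. Replicates of the groups compared did not overlap for 2 of 7 members in FK against WT, beside 27.3% of all genes, for 3 of 7 in FA against WT, beside 24.9%, and for 2 of 7 in FA against FK, beside 17.2% (8.24% higher, 8.99% lower). FK replicate 3 lay outside the range of FK replicates 1 and 2 for IGF1, IGFBP1, IGFBP2, GHR and IGF1R. The share of all genes for which it does so was not counted. GHR was lower in each FA and FK replicate than in any WT replicate.

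**Figure D2:**
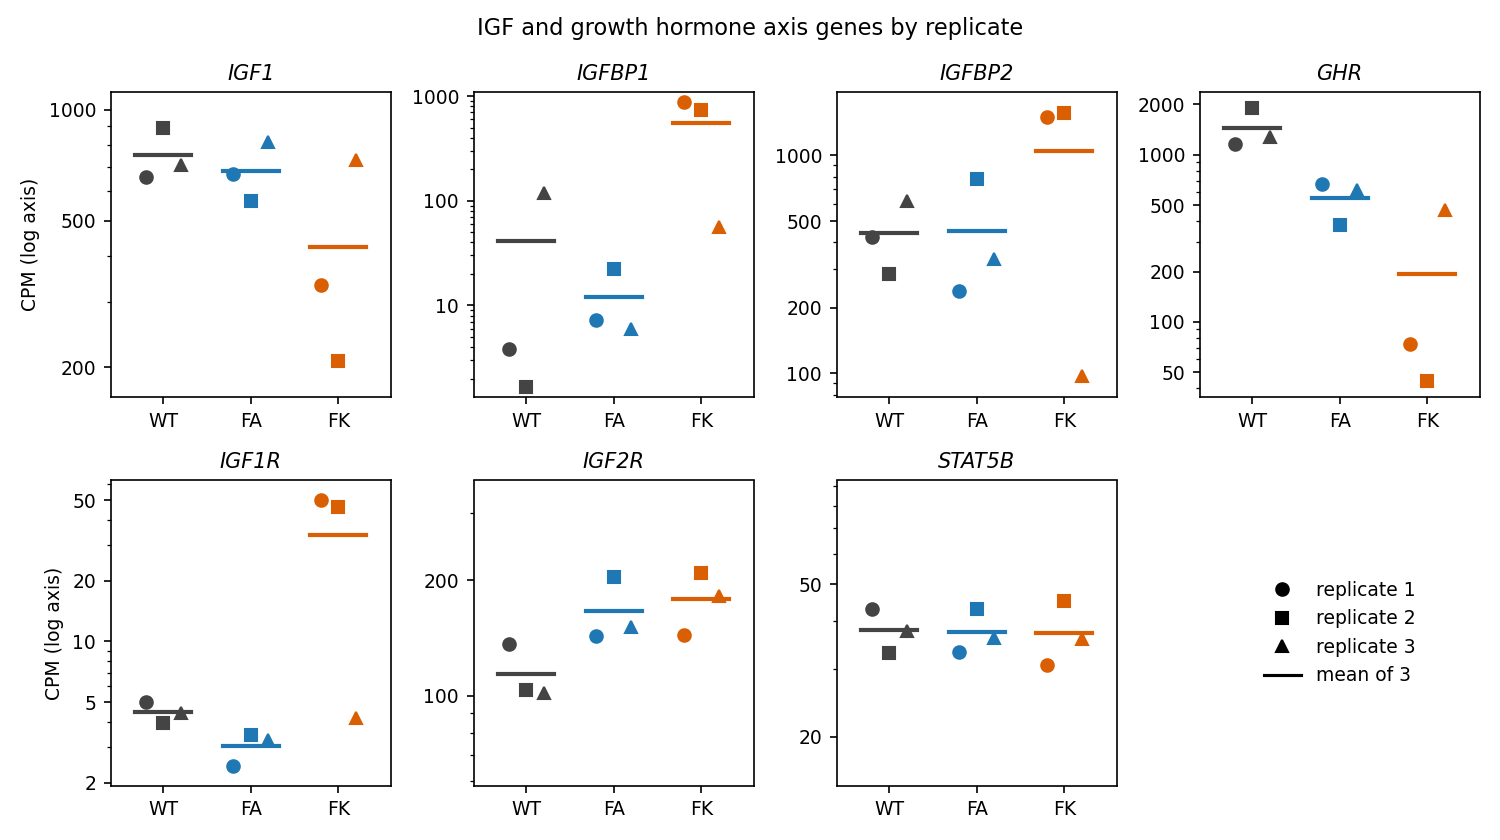
CPM of the 7 axis genes on log axes, 1 symbol per replicate and a line at the mean of 3. FK replicate 3 lies apart from FK replicates 1 and 2 for IGF1, IGFBP1, IGFBP2, GHR and IGF1R, and between them for IGF2R and STAT5B.

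GHR, the growth hormone receptor, had 1154, 1899 and 1283 CPM in the 3 WT replicates, in the order of their numbers. The FA replicates 1, 2 and 3 had 666, 378 and 614 CPM, and the FK replicates 73.5, 44.3 and 465 CPM. Every WT replicate lay above every FA and FK replicate, and FK replicate 3 lay within the FA range. Libraries of a set are not independent, so their values add no separate support. The lowest WT library had 1088 CPM, the highest FA library 827 and the highest FK library 523.1. The group means were 1445 ± 398 CPM in WT, 553 ± 154 in FA and 194 ± 235 in FK (SD, n = 3), or 38.3% and 13.4% of the WT mean. In FK against WT the fitted log2 difference was -2.90 (SE 0.83; edgeR adjusted p = 0.0726), which did not pass. DESeq2 gave an adjusted p of 0.00113 for the same difference, and over all alternatives the adjusted p ran from 9.65e-08 to 0.196. Without FK replicate 3 the difference was -4.64 (SE 0.45; edgeR adjusted p = 0.00014), a mean of 58.9 CPM or 4.07% of WT. FK replicate 3 set alone against the 3 WT replicates gave -1.67 (edgeR adjusted p = 0.173), where its spread was assumed to be that of WT and FA. In FA against WT the difference was -1.39 (SE 0.79; edgeR adjusted p = 0.596), and -1.39 with an adjusted p of 0.0774 where FK replicate 3 was left out of the shared fit. Between FA and FK it was 1.51 (SE 0.79; edgeR adjusted p = 0.297; 95% interval -0.28 to 3.30), and 3.25 (edgeR adjusted p = 0.000503) without FK replicate 3. Replicates that do not overlap and lie lower were found for 13.4% of all genes in FK against WT and for 12.4% in FA against WT.

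IGF1, the main hepatic product of the axis, had overlapping FA and WT replicates. Its level was 656, 893 and 707 CPM in WT replicates 1, 2 and 3, and 668, 564 and 818 CPM in FA replicates 1, 2 and 3. The fitted log2 difference was -0.14 (SE 0.44; edgeR adjusted p = 0.951), with a 95% interval of -1.14 to 0.87. That interval is wide enough to hold a change of 2-fold down, so a moderate difference was not detectable. The FK replicates 1, 2 and 3 had 334, 208 and 730 CPM. The first 2 lay below every WT and FA replicate, and replicate 3 lay inside the WT range. The FK mean of 424 ± 273 CPM (SD, n = 3) differed from the WT mean of 752 ± 125 by -0.83 (SE 0.45; edgeR adjusted p = 0.268). Without FK replicate 3 the difference was -1.50 (SE 0.31; edgeR adjusted p = 0.00567), a mean of 271 CPM or 36.0% of WT. In FK replicate 3 IGF1 was 97.1% of the WT mean while GHR was 32.2% of it, and in FA the group means were 90.9% and 38.3%. Whether the 2 genes differed in their change was not tested. The labels do not state whether the strand was kept, and a long noncoding RNA, LOC127491067, overlaps IGF1 in RefSeq's annotation of mOryCun1.1, so reads of the pair may not be separable.

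STAT5B, the transcription factor that links GHR to IGF1, was the most even gene of the axis. It stood at 43.2, 33.2 and 37.7 CPM in WT, at 33.3, 43.0 and 36.3 in FA and at 30.8, 45.2 and 35.9 in FK replicates 1, 2 and 3. The 3 groups overlapped fully, with means of 38.0 ± 5.01, 37.5 ± 4.96 and 37.3 ± 7.30 CPM (SD, n = 3). The 95% interval of the log2 difference was -0.48 to 0.43 in FK against WT and -0.47 to 0.44 in FA against WT. With FK replicate 3 left out, the FK difference was -0.02 (SE 0.22; edgeR adjusted p = 0.958). Its direction turned with the scaling: without scaling factors the FK difference from WT was 0.15 in place of -0.03. STAT5A, the close relative of STAT5B, was not analysed here, and the estimated counts may divide reads that the 2 genes share. RefSeq's annotation of mOryCun1.1 held no protein-coding gene under the symbol STAT5B, so the identity of this row rests on its symbol alone.

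IGF1R, the receptor for IGF1, was high in FK replicates 1 and 2 alone. They had 50.1 and 46.5 CPM, and FK replicate 3 had 4.16. It was 5.02, 3.96 and 4.44 CPM in WT and 2.41, 3.43 and 3.26 CPM in FA replicates 1, 2 and 3. The lowest library of FK replicates 1 and 2 had 33.3 CPM and the highest library of any other replicate 5.98 CPM. The fitted log2 difference of FK from WT was 2.91 (SE 0.73; edgeR adjusted p = 0.0542), just short of the threshold, and DESeq2 gave an adjusted p of 0.000461. Apart from FK replicate 3 alone, the adjusted p of the edgeR, DESeq2 and limma alternatives ran from 3.68e-08 to 0.176. The lowest came from the edgeR fit of 36 libraries, which treats libraries of a set as independent, and the highest from edgeR without WT replicate 2. FK replicate 3 alone differed from WT by -0.14. Without FK replicate 3 the difference was 3.41 (SE 0.21; edgeR adjusted p = 2.1e-05), a mean of 48.3 CPM or 10.8-fold the WT mean. In FA every replicate lay below every WT replicate, but by a log2 difference of only -0.56 (SE 0.69; edgeR adjusted p = 0.844). FA lay below all 3 FK replicates as well, by -3.47 (SE 0.75; edgeR adjusted p = 0.115). The erythroid, neutrophil and cell division marker sums were high in the same FK replicates, and the part of these cells in the IGF1R level was not tested. In a bulk sample, more cells of a type and more RNA per cell cannot be told apart.

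IGF2R, which also carries mannose 6-phosphate tagged enzymes to lysosomes, was higher in all FA and all FK replicates than in all WT replicates, with group means at 146% and 157% of the WT mean. It stood at 136, 103 and 102 CPM in WT, at 143, 205 and 151 in FA and at 144, 209 and 183 in FK replicates 1, 2 and 3. The gap between the highest WT and the lowest FA replicate was small, 136.2 against 143.4 CPM. The log2 difference was 0.65 (SE 0.24; edgeR adjusted p = 0.132) in FK against WT and 0.55 (SE 0.24; edgeR adjusted p = 0.494) in FA against WT, and neither passed. The FK difference was 0.62 (SE 0.26; edgeR adjusted p = 0.0973) when replicate 3 was left out. Replicates that lie higher without overlap were found for 13.9% of all genes in FK against WT and 12.5% in FA against WT. The 2 comparisons share the WT replicates.

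**Figure D3:**
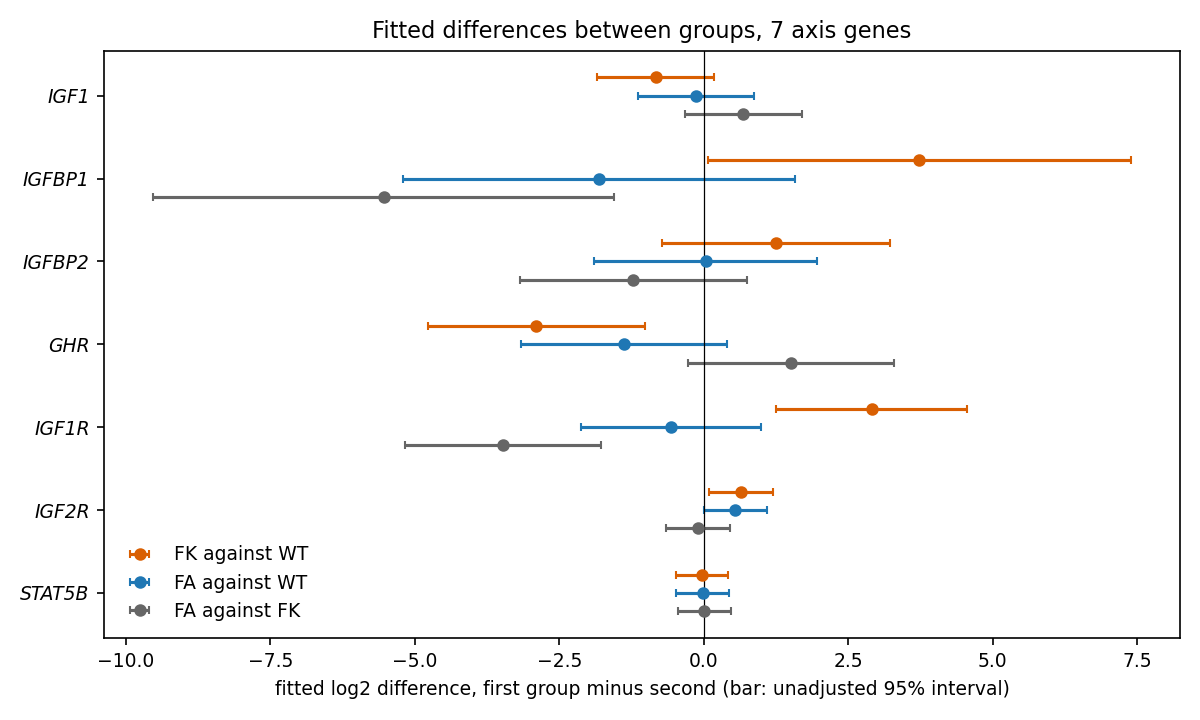
Fitted log2 differences of the 7 axis genes in the 3 comparisons, with unadjusted 95% intervals from edgeR's fit of all 9 replicates. IGFBP1, IGF1R and GHR have the widest shifts in FK against WT (3.73, 2.91 and -2.90), and STAT5B lies at 0 within 0.03 in all 3 comparisons.

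IGFBP1, the binding protein that answers to insulin within hours, had the widest range of the axis. FK replicates 1, 2 and 3 had 875, 730 and 56.1 CPM. It was 7.28, 22.4 and 5.97 CPM in FA replicates 1, 2 and 3. The WT replicates disagreed with each other: 3.83 and 1.66 CPM in replicates 1 and 2 against 119 CPM in replicate 3, a 72.0-fold range. All 4 libraries of WT replicate 3 were high, from 82.9 to 135.8 CPM, while no library of WT replicates 1 and 2 exceeded 4.57 CPM. The mean was 554 ± 437 CPM in FK, 41.6 ± 67.3 in WT and 11.9 ± 9.15 in FA (SD, n = 3). The log2 difference of FK from WT was 3.73 (SE 1.62; edgeR adjusted p = 0.179), and FK replicate 3 lay below WT replicate 3. It was 7.63 (edgeR adjusted p = 0.0902) without WT replicate 3 and 4.26 (edgeR adjusted p = 0.0525) without FK replicate 3. Against WT the FA difference was -1.81 (SE 1.50; edgeR adjusted p = 0.747) and turned to 2.11 (edgeR adjusted p = 0.784) without WT replicate 3, so that 1 replicate set its direction. FA lay below FK without overlap, by -5.54 (SE 1.76; edgeR adjusted p = 0.135), and by -6.05 (edgeR adjusted p = 0.018) without FK replicate 3. DESeq2 called this difference, with an adjusted p of 0.00549.

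IGFBP2, the binding protein abundant in fetal plasma, also split the FK replicates. FK replicates 1 and 2 had 1498 and 1564 CPM, above every other replicate, and FK replicate 3 had 97.3 CPM, below every other replicate. In WT it was 422, 285 and 618 CPM and in FA 239, 783 and 334 CPM in replicates 1, 2 and 3. The FK mean of 1053 ± 828 CPM differed from the WT mean of 442 ± 168 by a log2 difference of 1.25 (SE 0.87; edgeR adjusted p = 0.383). Leaving out FK replicate 3 gave 1.78 (SE 0.49; edgeR adjusted p = 0.022), and FK replicate 3 alone gave -2.21 (edgeR adjusted p = 0.238). FA and WT overlapped, at 0.03 (SE 0.85; edgeR adjusted p = 0.995). IGFBP5, the neighbour of IGFBP2 in the RefSeq order, did not share its pattern: it was 14.2, 12.3 and 23.1 CPM in FK replicates 1, 2 and 3 and 25.7, 36.2 and 18.1 in WT.

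Over the 9 replicates Pearson's r of log CPM was 0.933 between IGF1 and GHR, -0.904 between IGF1 and IGF1R, and -0.812 between IGF1 and IGFBP1. For IGFBP1 and IGF1R it was 0.817, and for STAT5B it lay between -0.313 and 0.493 with the other members. IGF2R was less close to the binding proteins and IGF1R, at 0.170 with IGFBP2, 0.284 with IGF1R and 0.369 with IGFBP1, and stood at -0.674 with GHR and -0.542 with IGF1. These are descriptions only: the 9 points share the split between FK replicates 1 and 2 and the rest. Among 6529 other named genes with a mean of at least 10 CPM, those most like GHR over the 9 replicates were FGGY (r = 0.990), a carbohydrate kinase, LGMN (0.988), a lysosomal protease, and JCHAIN (0.985), the joining chain of secreted antibodies. Most like IGF1 were AP1G1 (0.989), NIF3L1 (0.988) and PDZK1 (0.987), most like IGFBP1 were MYC (0.983), DYRK2 (0.974) and FOSL2 (0.965), and most like IGFBP2 were PRMT6 (0.932), SEC13 (0.930) and PDLIM1 (0.923). MYC, a transcription factor of growing cells, had means of 31.8 CPM in FK, 6.44 in WT and 5.44 in FA.

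Of 8 tested genes of growth hormone receptor signalling (9 listed), 1 was called higher in FK against WT, beside 3.04% of all genes. None was called in FA against WT or FA against FK, where 0.167% and 0% of all genes were called. The median log2 difference was 0.33 in FK against WT, beside 0.05 over all tested genes. The called gene was STAT3, which also carries interleukin-6 signals. STAT3 stood at 143, 103 and 165 CPM in WT, 202, 365 and 268 in FA and 321, 358 and 426 in FK replicates 1, 2 and 3. It rose in FK by 1.43 on the log2 scale (SE 0.30; edgeR adjusted p = 0.0414), with all FK replicates above all WT replicates. The call was lost on leaving out any 1 replicate other than FK replicate 3, with edgeR adjusted p up to 0.161. Most calls of all genes were lost in the same fits, which called 22 to 154 genes against 712 in the fit of all 9 replicates. JAK2, the kinase bound to GHR, was at 15.2 to 16.3 CPM in WT and 18.3 to 21.6 in FK (log2 difference 0.33, SE 0.17; edgeR adjusted p = 0.240). With FK replicate 3 left out, 2 of the 8 were called higher and 1 lower, beside 18.7% and 16.2% of all genes, and STAT3 was 1.29 higher (SE 0.29; edgeR adjusted p = 0.00894). PRLR, the related prolactin receptor, was at 30.3 to 40.3 CPM in WT, 40.6 to 61.8 in FA and 34.7 to 60.4 in FK.

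Of 11 genes of feedback on growth hormone signalling, 1 was called higher in FK against WT, beside 3.04% of all genes. None was called in FA against WT or FA against FK, beside 0.167% and 0% of all genes. The median log2 difference was 0.82 in FK against WT, beside 0.05 over all tested genes. SOCS3, an inhibitor of JAK kinases induced by cytokines, was at 6.71, 6.02 and 2.45 CPM in WT, 5.81, 29.8 and 9.97 in FA and 58.5, 78.6 and 16.8 in FK replicates 1, 2 and 3. It rose in FK by 3.34 (SE 0.77; edgeR adjusted p = 0.0486), and all 3 FK replicates lay above all WT replicates. This call too was lost on leaving out any 1 replicate other than FK replicate 3 (edgeR adjusted p up to 0.161), as were most calls of all genes. When FK replicate 3 itself was left out, 3 of the 11 were called higher and none lower, beside 18.7% and 16.2% of all genes, and the SOCS3 difference was 3.74 (SE 0.66; edgeR adjusted p = 0.00278). CISH and SOCS2, whose transcription STAT5 drives directly, were not called, and their FK and WT values overlapped. CISH was at 15.4, 20.8 and 13.3 CPM in WT and 14.1, 24.0 and 17.7 in FK, and SOCS2 at 16.6, 10.3 and 32.6 in WT and 39.5, 18.02 and 23.3 in FK (log2 differences 0.17 and 0.44; edgeR adjusted p = 0.731 and 0.537). In FA, CISH was at 16.3 to 25.8 CPM and SOCS2 at 19.01 to 24.3 CPM.

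CUX2 of the same list was singled out after its values were seen. It encodes a homeobox repressor whose liver level in rodents follows the pattern of growth hormone release, which differs between the sexes. The labels give no sex, and its part in the CUX2 level was not tested. The FA replicates had 163, 93.4 and 165 CPM of CUX2 and FK replicate 3 had 139. FK replicates 1 and 2 had 1.58 and 1.59 CPM, and the WT replicates 2.84, 0.854 and 0.535. All FA replicates lay above all WT replicates, yet the log2 difference of 6.63 (SE 1.84; edgeR adjusted p = 0.289) did not pass in the fit of 9 replicates.

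Of 8 tested genes among the other IGF binding proteins and their proteases (10 listed), none was called in any comparison by edgeR, with 4, 1 and 1 at an unadjusted p under 0.05 in FK against WT, FA against WT and FA against FK, beside 26.9%, 10.2% and 21.9% of all genes. When FK replicate 3 was left out, 3 of the 8 were called lower in FK against WT, beside 16.2% of all genes, and none of the 8 higher. PAPPA, a listed protease too low to be tested with all 9 replicates (WT mean 0.059 CPM), entered that fit. It was called higher (log2 difference 2.53, SE 0.86; edgeR adjusted p = 0.0478). Over the 8 genes in the fit of all 9 replicates, the median log2 difference was -0.52 in FK against WT and -0.48 in FA against WT. IGFBP4, a main binding protein of adult plasma, was at 815, 609 and 773 CPM in WT, 533, 899 and 416 in FA and 640, 687 and 700 in FK. The smallest p belonged to IGFBP6, which prefers IGF2, at 6.42, 5.03 and 9.04 CPM in WT and 2.22, 1.77 and 3.84 in FK (log2 difference -1.39, SE 0.37; edgeR adjusted p = 0.0603), and its difference was -1.79 (SE 0.33; edgeR adjusted p = 0.00339) when FK replicate 3 was left out. Endothelial markers (10 of 10 found) summed to 339 to 417 CPM in WT, 203 to 269 in FA and 289 to 544 in FK, none at 0. These markers did not move alike. EHD3 had 152.1 and 184.1 CPM in FK replicates 1 and 2 and 43.0 to 65.9 in WT. CLEC4G had 4.55 to 8.82 CPM in FK and 11.5 to 19.1 in WT, and STAB2 and CDH5 also lay lower in all FK than in all WT replicates. The part of endothelial cells in the levels of the binding proteins was not tested.

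Downstream of the receptors, none of 20 tested genes of insulin and IGF receptor signalling (21 listed) was called by edgeR in any comparison, with 5, 0 and 4 at an unadjusted p under 0.05, beside 26.9%, 10.2% and 21.9% of all genes. The median log2 difference was 0.02 in FK against WT and -0.01 in FA against WT. AKT2, the main AKT kinase of insulin action in liver, had the smallest p, at 104, 128 and 84.0 CPM in WT and 59.1, 77.4 and 63.0 in FK (log2 difference -0.66, SE 0.22; edgeR adjusted p = 0.0968). INSR, the insulin receptor and nearest relative of IGF1R, was at 59.9, 53.4 and 56.9 CPM in WT and 50.5, 60.9 and 106.9 in FK replicates 1, 2 and 3, and FK replicates 1 and 2 lay at or near the WT level. On leaving out FK replicate 3, 2 of 20 genes were called higher and 3 lower in FK against WT, below the 18.7% and near the 16.2% of all genes called in that fit. AKT2 was then at -0.65 (SE 0.25; edgeR adjusted p = 0.0712).

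Genes of fetal growth and IGF2 control gave the most calls of the lists. Of 8 tested (12 listed), 2 were called higher in FK against WT and 1 in FA against WT, beside 3.04% and 0.0937% of all genes. None was called in FA against FK, beside 0% of all genes. The median log2 difference was 2.79 in FK against WT and -0.13 in FA against WT, beside 0.05 and 0.004 over all tested genes. GPC3, a cell surface proteoglycan that binds growth factors, rose in both groups. It was at 1.98, 3.22 and 2.22 CPM in WT, 53.8, 32.7 and 45.6 in FA and 160, 208 and 67.6 in FK replicates 1, 2 and 3. The log2 difference from WT was 5.87 (SE 0.49; edgeR adjusted p = 0.00321) in FK and 4.15 (SE 0.45; edgeR adjusted p = 0.0128) in FA. The FK call held in all 9 fits that left out 1 replicate and the FA call in 4 of 9, with edgeR adjusted p up to 0.111; it was lost without any 1 of the WT replicates, FA replicate 1 or FA replicate 3. IGF2BP3, a fetal RNA-binding protein that binds IGF2 messenger RNA, rose in FK (4.40, SE 0.97; edgeR adjusted p = 0.0449), at 10.9 and 17.2 CPM in replicates 1 and 2 but 0.625 in replicate 3, where WT held 0.304 to 0.580 CPM. That call was lost on leaving out any 1 replicate other than FK replicate 3 (edgeR adjusted p up to 0.170), as were most calls of all genes. For PLAG1, a transcription factor known to act on the IGF2 promoters, FK replicates 1 and 2 had 7.69 and 6.52 CPM and the other 7 had 0.184 to 0.674 CPM (edgeR adjusted p = 0.0659 in FK against WT). All 8 tested genes were higher in FK replicates 1 and 2 than in any WT replicate, but the share of all genes with that order was not counted. Without FK replicate 3 edgeR called 6 of the 8 higher, all except IGF2BP2 and HMGA2, beside 18.7% of all genes. MEST of the same list, not tested with all 9 replicates, entered that fit. It was called higher too (log2 difference 3.16, SE 0.81; edgeR adjusted p = 0.0157), from a WT mean of 0.043 CPM. FK replicates 1 and 2 also had the high erythroid (907 and 2343 CPM), neutrophil (1067 and 1557) and cell division (295.6 and 628.7) marker sums. The part of these cells in the levels was not tested.

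**Figure D4:**
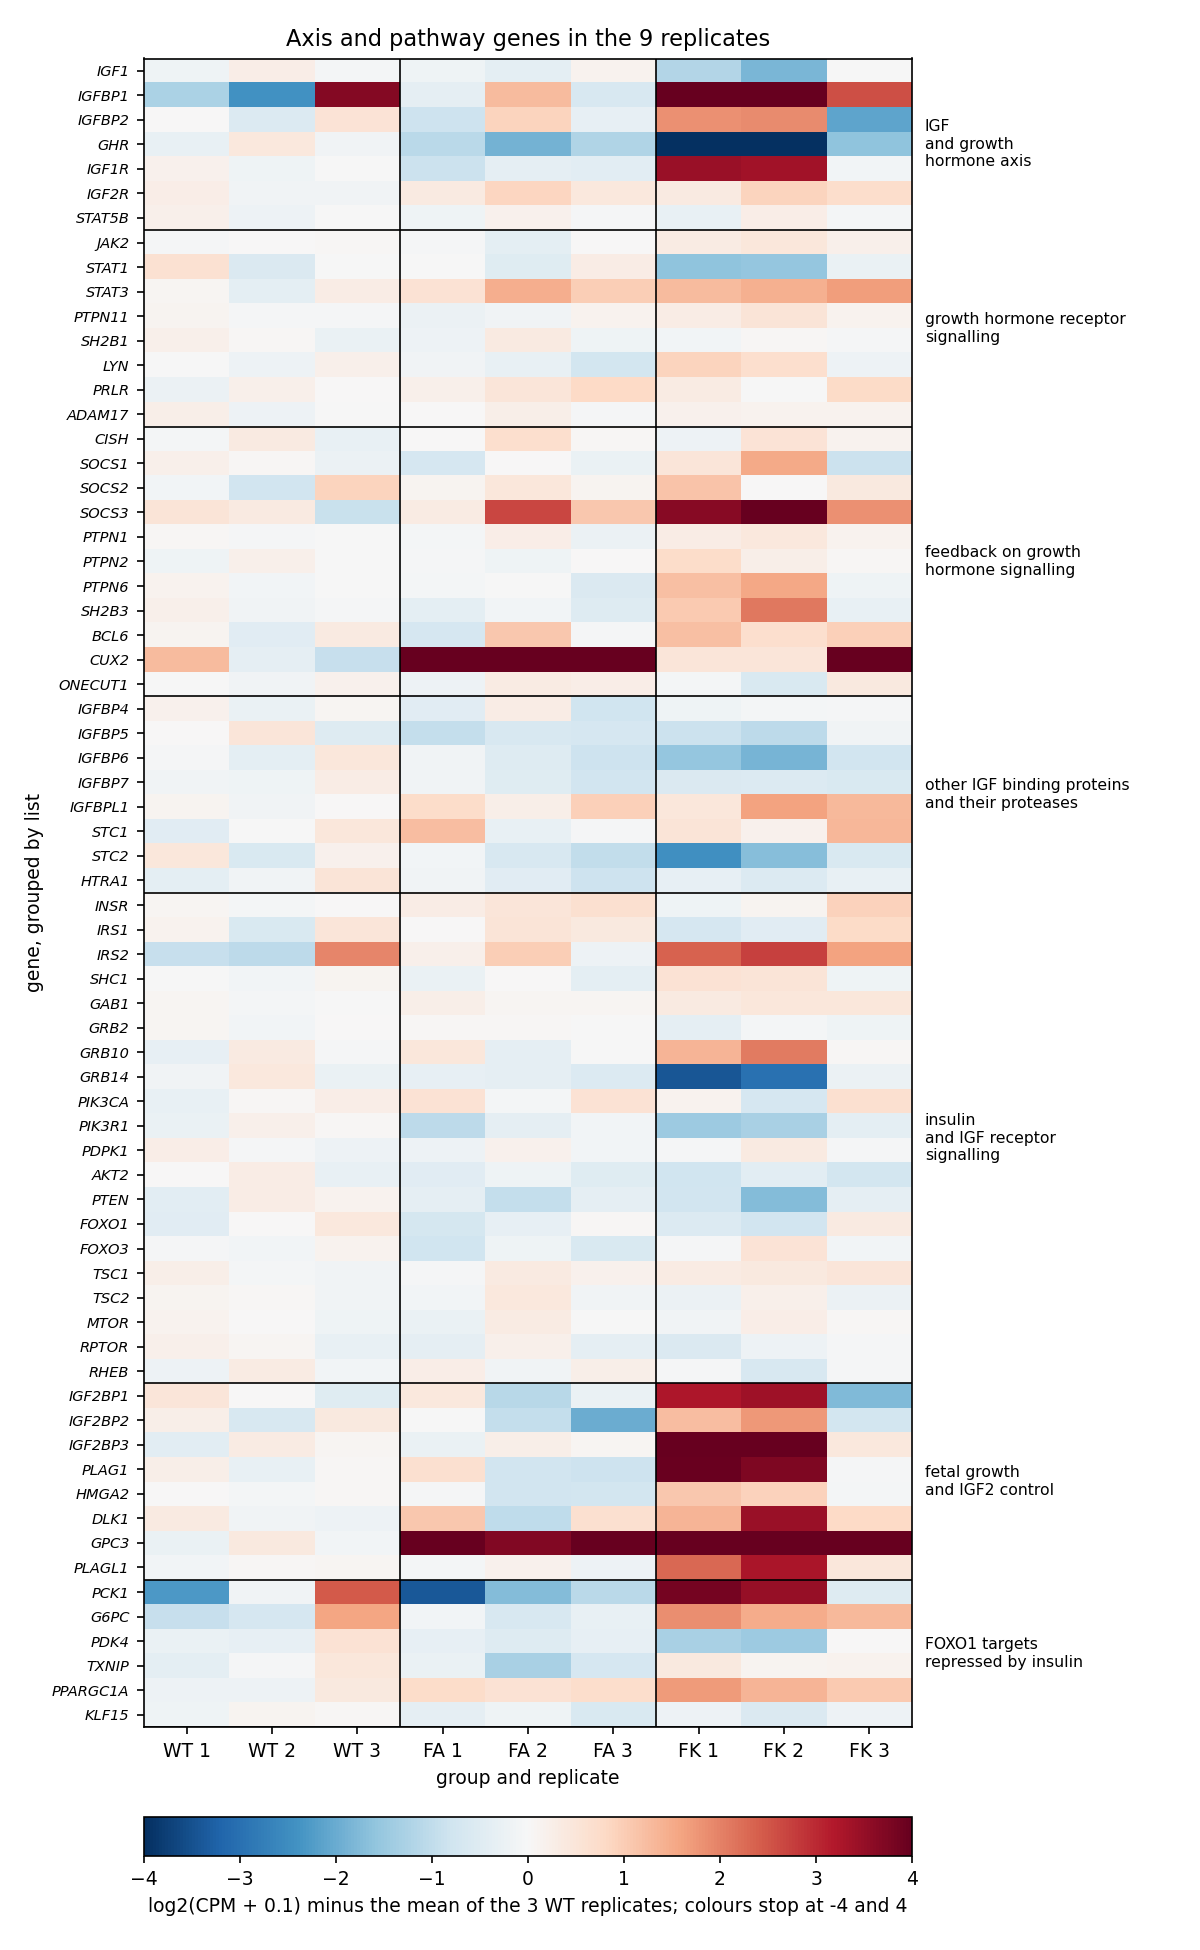
Heat map of log2(CPM + 0.1) minus the WT mean on that scale, 1 row for each tested axis or pathway gene (a gene of 2 lists is drawn once) and 1 column for each replicate; colours stop at -4 and 4. FK replicate 3 resembles the FA columns for GHR, CUX2 and GPC3, and the fetal growth genes other than GPC3 are raised in FK replicates 1 and 2.

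IGFBP1 was set beside 7 genes that FOXO1 activates and insulin represses. Of the 7, 1 was called higher in FK against WT, beside 3.04% of all genes. None was called in FA against WT or FA against FK, beside 0.167% and 0% of all genes. PPARGC1A, a coactivator of glucose production, rose from 9.90, 9.89 and 14.9 CPM in WT to 37.3, 29.1 and 23.5 in FK (1.37, SE 0.23; edgeR adjusted p = 0.0314), with FA between them at 18.97, 17.1 and 18.5 CPM. The call was lost on leaving out any 1 replicate other than FK replicate 3 (edgeR adjusted p up to 0.139), as were most calls of all genes. Of the 7, 6 had their highest WT value in replicate 3, where IGFBP1 was highest too. The share of all genes with their highest WT value in that replicate was not counted. PCK1, the first enzyme of glucose production from lactate and amino acids, was at 23.1, 103 and 621 CPM in WT, 10.8, 34.0 and 53.6 in FA and 1606, 1278 and 79.6 in FK replicates 1, 2 and 3. IRS2, an adaptor of the insulin receptor, was at 0.623, 0.564 and 5.15 CPM in WT, 1.47, 2.61 and 1.07 in FA and 6.84, 8.95 and 4.09 in FK. G6PC, the last step of glucose release, was at 48.7, 57.6 and 273 CPM in WT, 85.0, 58.1 and 75.1 in FA and 335, 256 and 225 in FK. The other members of the list did not all share this order. PDK4, which restrains glucose oxidation, was at 215, 208 and 390 CPM in WT and 106.3, 95.1 and 259 in FK (log2 difference -0.82, SE 0.42; edgeR adjusted p = 0.246), and was called lower without FK replicate 3 (-1.44, SE 0.30; edgeR adjusted p = 0.00635). KLF15, a transcription factor of fasting metabolism, lay lower in all FK than in all WT replicates, at 32.4 to 41.6 against 43.1 to 51.9 CPM (log2 difference -0.33, SE 0.19; edgeR adjusted p = 0.291). With FK replicate 3 left out, 1 of the 7 was called higher (PPARGC1A, 1.50, edgeR adjusted p = 0.000975) and 1 lower (PDK4), beside 18.7% and 16.2% of all genes. All FA replicates lay below all FK replicates for 5 of the 7, beside 8.99% of all genes. For PCK1, G6PC and IRS2 among them, as for IGFBP1, none of these differences passed (edgeR adjusted p of 0.123, 0.138 and 0.220, and 0.135 for IGFBP1). The labels do not give the feeding state of the animals.

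**Figure D5:**
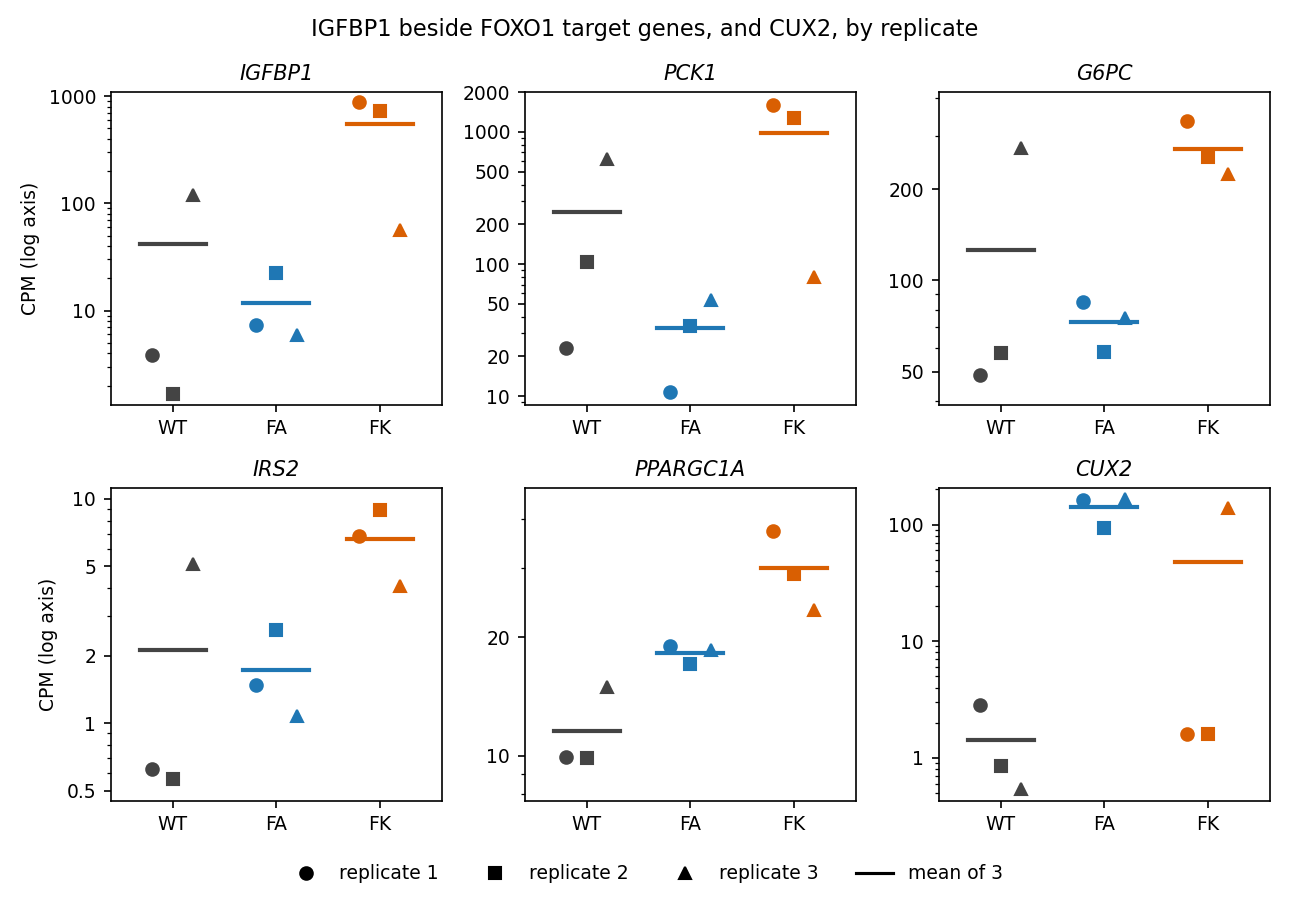
CPM on log axes of IGFBP1, of 4 genes that insulin represses (PCK1, G6PC, IRS2 and PPARGC1A) and of CUX2, with symbols for replicates and a line at the mean of 3. WT replicate 3 is the highest WT replicate for all except CUX2, where it is the lowest, and CUX2 is above 90 CPM in the FA replicates and FK replicate 3.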

How the data were processed

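Liver RNA from 36 libraries was analysed from 1 gene table. The authors deposited estimated counts as whole numbers, and Salmon 0.14.1 is named per the submitters' processing notes. What it was used for, how values were rounded and the genome build are not stated in the sources here. Libraries were made with a TruSeq kit, per the labels' protocols. Libraries of a set differed by more than sampling noise (chi-square per degree of freedom 2.70 to 47.4 over 54 pairs) and were summed. The 9 replicates were fitted in edgeR 4.0.16 (R 4.3.3) with TMM, filterByExpr and quasi-likelihood F tests. Benjamini-Hochberg adjustment ran over 14939 genes at 0.05, and the procedure was tested on simulated data. CPM are counts per M after TMM scaling. Alternatives used DESeq2 1.42.0, limma 3.58.1, other scaling and filters, a replicate block, single libraries, and each replicate left out. The fit of FK replicate 3 alone was chosen after seeing the data. Leaving out each replicate was planned, but the fit without FK replicate 3 was featured because that replicate stood apart in these same data. Depth limits IGFBP1 and IGF1R most, at 21 and 33 counts in their lowest library. The labels do not say whether replicate numbers pair samples across groups. The correlation of deviations from the group mean was -0.087 to 0.099 for same-numbered replicates and -0.095 to 0.115 for others. With 3 replicates a group these values cannot exclude a pairing. Members, lists and tests were chosen with earlier results of these data known. Named genes were FAH, the members, up to 4 called genes per pathway list (else the smallest p), and the 3 genes most like IGF1, IGFBP1, IGFBP2 and GHR. Other genes were named after their values were seen. RPTOR and KRT19 were matched through their RefSeq identifiers. Figures used Python 3.11.15 and matplotlib 3.10.9.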

Additional observations from a re-analysis of the deposited data

How the results depend on the processing

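The log2 differences of the 7 members in 3 comparisons were recomputed in 385 alternative fits: 328 kept the direction and the side of the threshold, 35 kept the direction and passed, and 22 reversed. In FK against WT the number of members called was 0, but 2 by DESeq2 (GHR and IGF1R), 1 without scaling factors (IGF1R), 6 with 36 libraries as separate replicates, 5 by limma-voom with the set as a random block, and 0 to 4 on leaving out 1 replicate (4 without FK replicate 3). In FA against WT it was 2 with 36 libraries. In FA against FK it was 2 by DESeq2 (IGFBP1 and IGF1R), 5 with 36 libraries, 3 by limma-voom and 0 to 5 on leaving out 1 replicate (5 without FK replicate 3). The fit of 36 libraries treats libraries of a set as independent, although their correlation was 0.791. With the set number as a replicate block, 0 members were called in each comparison and 47, 3 and 0 of all genes, against 712, 25 and 0.

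Reversed values were small except where 1 replicate decided them. STAT5B in FK against WT was 0.149 without scaling factors, and -0.188 to 0.093 on leaving out 1 replicate. In FA against WT it was -0.127 to 0.089 on leaving out 1. In FA against FK it was -0.203 without scaling factors, -0.016 with a minimum of 1 CPM, -0.012 with 36 libraries and -0.111 to 0.178 on leaving out 1. FK replicate 3 alone gave -2.213 for IGFBP2 and -0.138 for IGF1R against WT. In FA against WT, IGFBP2 was -0.227 with the replicate block, -0.089 by limma-voom and -0.625 to 0.348 on leaving out 1. IGFBP1 was 0.079 by limma-voom and -2.649 to 2.11, and IGF1 was -0.284 to 0.002. IGF2R in FA against FK was -0.265 to 0.034. The cause was not tested. Leaving out the scaling factors moved the median of all genes to 0.21 in FK against WT and -0.212 in FA against FK. Over all genes, 22 to 154 were called in FK against WT on leaving out 1 replicate other than FK replicate 3. DESeq2 called 2591, 352 and 1695 genes in the 3 comparisons.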
